A study of Mus musculus with 8 samples.

Results

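The 7 genes described here encode secreted growth factors of the VEGF family (Vegfa, Vegfb, Vegfc and Pgf) and of the PDGF family (Pdgfa, Pdgfb and Pdgfc). They were chosen by gene symbol, as members of these families among the 41457 genes of the deposited tables, and all 7 had enough reads to be tested. The choice left out Vegfd and Pdgfd, the other ligand genes of these families, which are described further below. Their RNA was measured in keratinocytes (KCs) prepared from the tail epidermis of adult WT (wildtype) C57BL/6 mice (C57BL/6J in the study's methods) and grown in culture for 1 week (4 samples) or 3 weeks (4 samples). All cultures were untreated and were kept in serum-free KC medium with 0.06 mM Ca++, a low calcium concentration. The samples of both times therefore differed by label only in the weeks of culture, and cells of other types were not removed by a sort. The comparison asks how the RNA of these growth factors in KCs changed between both times.

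VEGF and PDGF proteins are related dimers held together by cystine-knot domains, and they act on receptor tyrosine kinases of neighbouring cells. VEGF-A and its relatives bind Flt1 (VEGFR1), Kdr (VEGFR2) and Flt4 (VEGFR3) on blood and lymphatic endothelium, with neuropilins as co-receptors. PDGF dimers bind Pdgfra and Pdgfrb on fibroblasts, pericytes and smooth muscle cells. In skin, KCs are a known source of VEGF-A for dermal capillaries and of PDGF-A for dermal fibroblasts, and both families take part in wound repair.

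The 250 bases upstream of the RefSeq start are printed for the members whose window lay outside annotated exons, so that a pair of genes that rose (Vegfc and Pdgfc) can be set beside a pair that did not pass the test (Vegfa and Vegfb). Sequences are from RefSeq on GRCm38.p6 and run 5′ to 3′ on the strand of the gene, and capitals mark GC boxes (GGGCGG, or CCGCCC on the other strand). The windows are chr8:54077282-54077531 (plus strand) for Vegfc, chr3:81036166-81036415 (plus strand) for Pdgfc, chr17:46032378-46032627 (minus strand) for Vegfa and chr19:6987652-6987901 (minus strand) for Vegfb.
Vegfc: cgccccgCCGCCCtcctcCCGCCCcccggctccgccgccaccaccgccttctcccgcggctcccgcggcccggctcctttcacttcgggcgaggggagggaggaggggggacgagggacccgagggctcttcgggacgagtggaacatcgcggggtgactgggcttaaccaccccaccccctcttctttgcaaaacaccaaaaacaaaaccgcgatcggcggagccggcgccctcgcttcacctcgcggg
Pdgfc: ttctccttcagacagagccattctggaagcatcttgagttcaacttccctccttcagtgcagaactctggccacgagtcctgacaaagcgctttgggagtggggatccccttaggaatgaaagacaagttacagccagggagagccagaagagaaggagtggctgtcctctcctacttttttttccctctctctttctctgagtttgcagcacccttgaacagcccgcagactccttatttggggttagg
Vegfa: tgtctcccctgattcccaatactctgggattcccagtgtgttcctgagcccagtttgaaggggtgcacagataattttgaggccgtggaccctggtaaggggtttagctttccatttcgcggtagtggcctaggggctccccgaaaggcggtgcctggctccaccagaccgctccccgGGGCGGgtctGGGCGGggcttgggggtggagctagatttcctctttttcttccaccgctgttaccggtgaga
Vegfb: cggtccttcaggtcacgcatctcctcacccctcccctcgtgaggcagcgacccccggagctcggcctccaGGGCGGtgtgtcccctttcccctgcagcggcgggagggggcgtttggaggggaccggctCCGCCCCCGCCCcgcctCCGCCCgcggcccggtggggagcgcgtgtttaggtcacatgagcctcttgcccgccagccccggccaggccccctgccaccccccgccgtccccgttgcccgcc

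The window of Vegfc held 2 GC boxes with 71.6% G and C, and that of Pdgfc held none with 50.8%. Vegfa had 2 GC boxes at 59.2% G and C, and Vegfb had 4 at 76.4%, of which a pair was adjacent. Among all 32851 RefSeq promoter windows of this length, 32.7% held a GC box on either strand. The letters of an AP-1 site (TGACTCA, or TGAGTCA on the other strand), the core of a hypoxia response element (ACGTG or CACGT) and the TATA box (TATAAA or TTTATA) were not found in these 4 windows. They were present in 4.46%, 16.6% and 12.4% of all windows. The RefSeq table held a window for 6 of the 7 members, without Pdgfb.

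Between 13896807 and 20026084 exon reads per sample were counted at 1 week and between 14096649 and 18127283 at 3 weeks. On the first principal component, with 54.5% of the variance, the samples of both times separated. On the second, with 21.6%, replicates 3 and 4 of the 3-week group stood apart at opposite ends (54.9 and -63.5, against -19.8 to 17.2 for the other 6), so results are also given without both. Of 12590 genes tested with edgeR, 4127 (32.8%) had an adjusted p-value under 0.05, 1981 of them higher (15.7%) and 2146 lower (17.0%) at 3 weeks. Higher genes made up 48.0% of these calls on counts scaled by TMM (edgeR's correction for library composition), but 29.8% with limma on log2(RPKM + 0.1). RPKM are exon reads scaled by exon length and by the sequencing depth of each library. The median log2 difference of all tested genes was 0.03 on the TMM scale and -0.16 on the log2(RPKM + 0.1) scale. Set against these medians, Vegfc, Pgf, Pdgfa, Pdgfb and Pdgfc were above and Vegfa and Vegfb below on both scales.

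Of the 7 members, 4 rose and 0 fell between 1 and 3 weeks (adjusted p-value under 0.05, edgeR). Among all tested genes, 15.7% were higher and 17.0% lower. The median log2 fold change of the 7 was 1.33, beside 0.03 over all tested genes. These counts leave out the ligand genes Vegfd (-1.54, adjusted p = 0.0726) and Pdgfd (0.56, adjusted p = 0.318, both edgeR). The 7 were also chosen with earlier results of these data known. Vegfc, Pgf, Pdgfb and Pdgfc rose, and Vegfa, Vegfb and Pdgfa did not pass the test. All 4 rose by more than 2-fold, as did 7.28% of all tested genes. In RPKM, 3 of the 7 (Vegfc, Pdgfb and Pdgfc) were higher in every 3-week sample than in any 1-week sample, as were 10.8% of all tested genes, and 0 of the 7 were lower in every 3-week sample, as were 26.2% of all tested genes. In cultures that may hold several cell types, more RNA per cell and more cells that make it cannot be told apart. Per the study, the batches of KCs were independent of each other, and the same batches were compared at both times. The labels do not say which samples of both times share a batch, and they name no animals, so the fit was unpaired and its p-values measure the spread between these samples. Fits with a block for a possible pairing are given where they end a member's call.

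**Figure D1:**
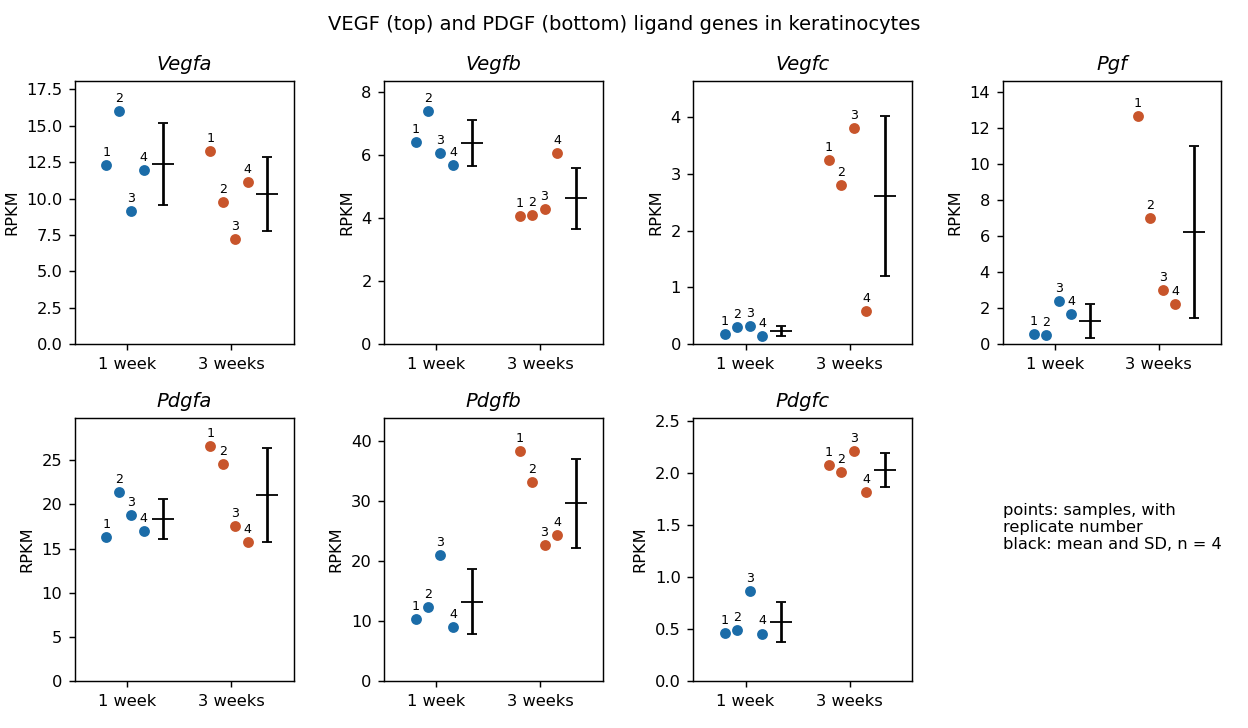
RPKM (y axes, each from 0) of the 7 ligand genes in the 4 samples at 1 week (blue) and the 4 at 3 weeks (orange), with replicate numbers, and the mean and SD in black. Vegfc, Pdgfb and Pdgfc have no overlap between both times, whereas Vegfa, Vegfb, Pgf and Pdgfa do.

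Vegfc encodes VEGF-C, the main growth factor of lymphatic vessels, which acts through Flt4 (ENSMUSG00000031520, chr8:54077606-54187096, plus strand). At 1 week it had 8, 15, 11 and 6 exon reads in replicates 1 to 4, or 0.172, 0.297, 0.313 and 0.139 RPKM. At 3 weeks it had 148, 113, 153 and 21 reads, or 3.24, 2.81, 3.80 and 0.584 RPKM. All 3-week samples were thus above all 1-week samples, but replicate 4 was far below the other 3. The mean went from 0.230 ± 0.0878 to 2.61 ± 1.41 RPKM (SD, n = 4), and the log2 fold change was 3.69 (SE 0.59, 95% interval 2.35 to 5.03, adjusted p = 0.00208, edgeR). This corresponds to a 12.9-fold rise, with an interval from 5.08 to 32.7, and it was the largest of the 7. At 1 week the level lay close to the limit of detection, since 3 reads are worth 0.0595 to 0.0853 RPKM over the 8 samples. The size of the change depended on the scale: with limma it was 2.81 on log2(RPKM + 0.1) and 1.44 on log2(RPKM + 1), both past the threshold.

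Pgf encodes placental growth factor, a ligand of Flt1 (ENSMUSG00000004791, chr12:85166635-85177790, minus strand). In replicates 1 to 4 at 1 week it had 31, 29, 100 and 86 reads, or 0.561, 0.485, 2.40 and 1.68 RPKM. The 3-week samples had 685, 335, 143 and 94 reads, or 12.7, 7.02, 3.00 and 2.20 RPKM. The groups overlapped, because replicate 4 at 3 weeks was below replicate 3 at 1 week, and the 3-week levels spanned a wide range. The 1-week mean was 1.28 ± 0.924 RPKM and the 3-week mean 6.22 ± 4.78 RPKM (SD, n = 4). The log2 fold change of 2.45 (SE 0.67, 95% interval 0.93 to 3.96) passed the threshold with an adjusted p = 0.0218 (edgeR). This call rested on single samples. It was lost without replicate 1 of the 1-week group (2.17, adjusted p = 0.0635), without its replicate 2 (2.16, adjusted p = 0.0533) and without replicate 1 of the 3-week group (1.85, adjusted p = 0.0614, all edgeR). It was also lost in both blocked fits, at 2.37 (adjusted p = 0.0838) with the replicate number of the labels as a block and at 2.12 (adjusted p = 0.0834) with the number that the tables carry.

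Vegfa encodes VEGF-A, the principal growth factor of blood vessels (ENSMUSG00000023951, chr17:46016993-46032369, minus strand). Its reads numbered 1003, 1412, 564 and 906 at 1 week and 1060, 686, 507 and 702 at 3 weeks. The levels in RPKM were 12.3, 16.0, 9.17 and 12.0 after 1 week, compared to 13.3, 9.74, 7.20 and 11.2 after 3 weeks. The 2 groups overlapped over most of their range, with means of 12.4 ± 2.80 and 10.3 ± 2.55 RPKM (SD, n = 4). The log2 fold change was -0.11 (SE 0.20, adjusted p = 0.722, edgeR), and its 95% interval from -0.56 to 0.35 corresponds to folds between 0.679 and 1.27. The sign of so small a value was not stable: without replicate 2 of the 1-week group it was 0.03. Vegfa was by far the most abundant VEGF gene at 1 week.

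Vegfb encodes VEGF-B, which binds Flt1 (ENSMUSG00000024962, chr19:6982473-6987651, minus strand). It had 196, 245, 140 and 161 reads at 1 week, or 6.41, 7.41, 6.08 and 5.69 RPKM. At 3 weeks it had 122, 108, 113 and 143 reads, or 4.08, 4.09, 4.29 and 6.07 RPKM. Replicates 1 to 3 at 3 weeks were below all 1-week samples, and only replicate 4 lay among them. The log2 fold change was -0.31 (SE 0.18, 95% interval -0.71 to 0.09, adjusted p = 0.217, edgeR), between means of 6.40 ± 0.738 and 4.63 ± 0.961 RPKM (SD, n = 4). With replicates 3 and 4 of the 3-week group both left out, it was -0.52 with an adjusted p = 0.04996 (edgeR), just under the threshold.

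Pdgfa encodes the A chain of PDGF, whose dimers act on Pdgfra (ENSMUSG00000025856, chr5:138976014-138997370, minus strand). It had 971, 1375, 844 and 936 reads at 1 week and 1545, 1259, 898 and 719 at 3 weeks. This gave 16.4, 21.4, 18.9 and 17.0 RPKM for the 1-week samples, and 26.6, 24.6, 17.5 and 15.7 RPKM for the 3-week samples. Replicates 1 and 2 at 3 weeks were above every 1-week sample, whereas replicate 4 was below every one. The means of 18.4 ± 2.26 and 21.1 ± 5.29 RPKM (SD, n = 4) gave a log2 fold change of 0.36 (SE 0.18, 95% interval -0.05 to 0.76, adjusted p = 0.156, edgeR). Replicate 4 of the 3-week group decided this call, as the value without it was 0.49 with an adjusted p = 0.0239. It was 0.60 (adjusted p = 0.00915) without replicates 3 and 4.

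Pdgfb encodes the B chain, which binds both PDGF receptors and recruits pericytes to new vessels (ENSMUSG00000000489, chr15:79995874-80014977, minus strand). It had 822, 1061, 1256 and 658 reads at 1 week, or 10.4, 12.4, 21.0 and 8.96 RPKM. At 3 weeks there were 2976, 2270, 1554 and 1486 reads, or 38.4, 33.2, 22.7 and 24.3 RPKM. The groups did not overlap, although replicate 3 at 1 week came close to replicate 3 at 3 weeks. The mean was 13.2 ± 5.41 RPKM before and 29.7 ± 7.41 RPKM after (SD, n = 4). This rise was 2.51-fold, or 1.33 on the log2 scale (SE 0.27, 95% interval 0.71 to 1.95, adjusted p = 0.00630, edgeR). Pdgfb became the most abundant of the 7 genes.

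Pdgfc encodes PDGF-C, a ligand that a protease must cleave before it can activate Pdgfra (ENSMUSG00000028019, chr3:81036416-81214040, plus strand). It had 45, 51, 63 and 41 reads at 1 week, or 0.464, 0.487, 0.862 and 0.457 RPKM. At 3 weeks it had 197, 168, 185 and 136 reads, or 2.08, 2.01, 2.21 and 1.82 RPKM. The 3-week samples lay close together, and their lowest value was more than 0.862 RPKM, the highest at 1 week. The mean rose from 0.568 ± 0.197 to 2.03 ± 0.164 RPKM (SD, n = 4), a 4.05-fold change with a log2 value of 2.02 (SE 0.25, 95% interval 1.46 to 2.58, adjusted p = 0.000670, edgeR). Its SE was below that of Vegfc and Pgf.

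**Figure D2:**
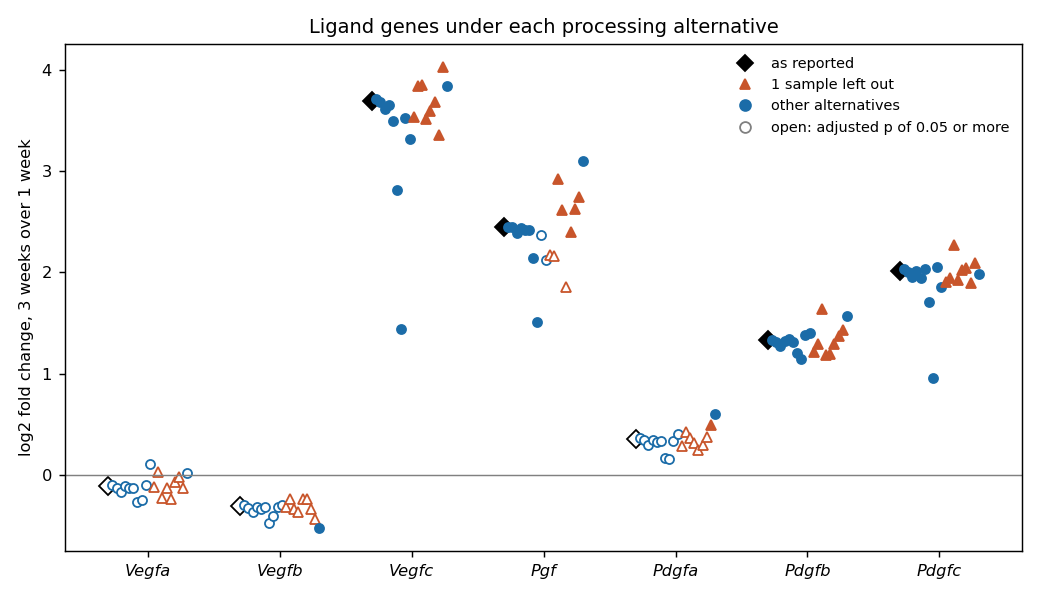
Log2 fold change (y axis, 3 weeks over 1 week) of each ligand gene as reported (black diamonds), with 1 sample left out (orange triangles) and under the other processing alternatives (blue circles). Open symbols have an adjusted p-value of 0.05 or more, and Vegfc, Pdgfb and Pdgfc have filled symbols throughout, while Pgf, Vegfb and Pdgfa have both kinds.

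Some of these genes overlap a transcript on the opposite strand, 6330403L08Rik for Pdgfa, Gm41361 for Pdgfb and Gm16000 for Pdgfc. Whether strand was used in counting is not given in the sources used here, so reads from both partners cannot be told apart. No such overlap was annotated for the 4 VEGF genes. Of the exon reads of Pdgfb, 82.5% were mapped uniquely, beside 95.8% for Pdgfc.

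The make-up of the VEGF transcripts differed between both times. Vegfa took 63.2, 66.1, 51.1 and 61.5% of the summed RPKM of the 4 VEGF genes in the 1-week samples, and 39.9, 41.2, 39.4 and 55.7% in the 3-week samples. Pgf took 2.89, 2.00, 13.4 and 8.62% at 1 week and 38.1, 29.7, 16.4 and 11.0% at 3 weeks. Replicate 1 at 3 weeks thus had nearly as much Pgf as Vegfa per length, whereas the shares of Vegfa and Pgf in replicate 4 lay within the 1-week range. The share of Vegfc was 0.883, 1.23, 1.74 and 0.713% at 1 week and 9.75, 11.9, 20.8 and 2.92% at 3 weeks. The sum itself was 19.4, 24.2, 18.0 and 19.5 RPKM at 1 week and 33.3, 23.7, 18.3 and 20.0 RPKM at 3 weeks. Only replicate 1 at 3 weeks stood above the 1-week range, while replicates 2 and 3 had other shares than the 1-week samples at sums within the 1-week range.

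In the PDGF genes, the order of the A and B chains turned. Pdgfb divided by Pdgfa was 0.635, 0.578, 1.12 and 0.527 in the 1-week samples and 1.44, 1.35, 1.30 and 1.55 in the 3-week samples. The B chain gene was therefore the lower one in 3 of 4 samples at 1 week and the higher one in 4 of 4 at 3 weeks. Since both values of a ratio come from the same library, it does not depend on the scaling between samples. The summed RPKM of the 3 PDGF genes was 27.2, 34.3, 40.7 and 26.4 at 1 week and 67.0, 59.8, 42.5 and 41.8 at 3 weeks. These groups did not overlap, with replicate 3 at 1 week just below replicates 3 and 4 at 3 weeks. Pdgfc remained the least abundant, with 1.42 to 2.12% of the sum at 1 week and 3.10 to 5.21% at 3 weeks.

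**Figure D3:**
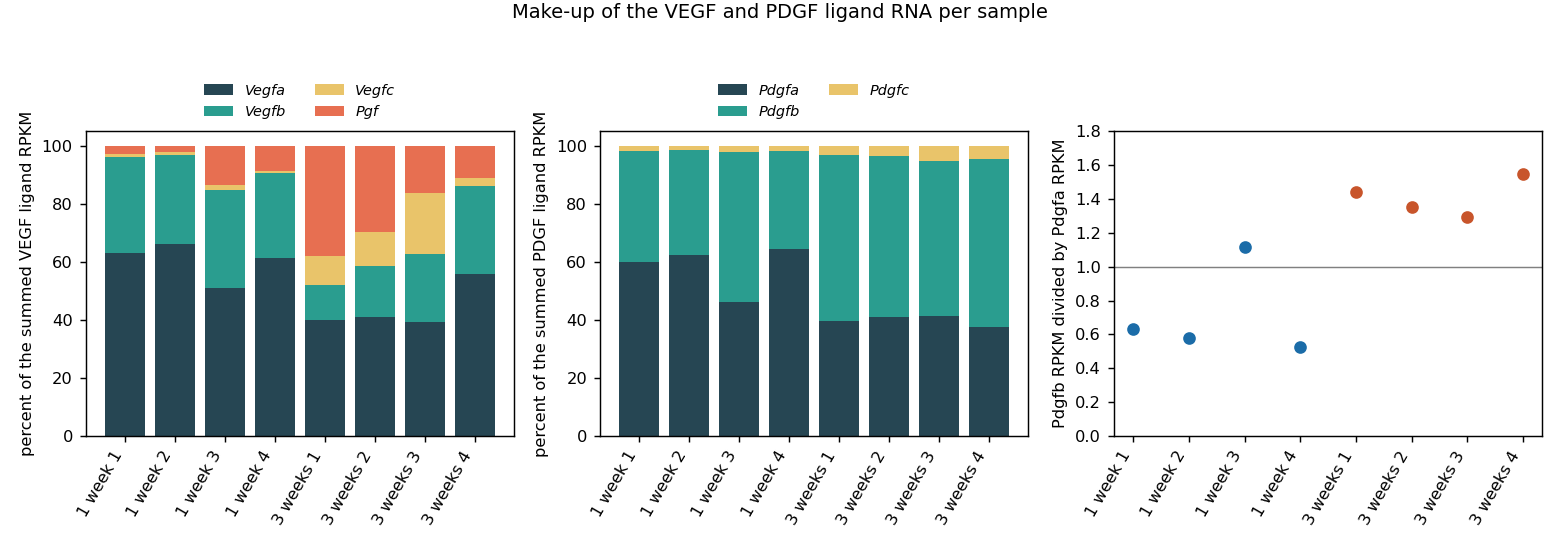
Percent of the summed VEGF ligand RPKM (left) and PDGF ligand RPKM (middle) taken by each gene in each sample, and Pdgfb RPKM divided by Pdgfa RPKM (right, blue at 1 week and orange at 3 weeks, with a line at 1). Vegfa takes 51.1% or more in each 1-week sample and 55.7% or less in each 3-week sample, and the Pdgfb to Pdgfa ratio is 1.30 or more in all 3-week samples.

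By mean RPKM at 1 week the order was Pdgfa, Pdgfb, Vegfa, Vegfb, Pgf, Pdgfc and Vegfc. The ranges of Pdgfa, Pdgfb and Vegfa overlapped from neighbour to neighbour, as did those of Pgf and Pdgfc, and the other neighbours were separate. Among the tested genes, Pdgfa stood at the 78.8th percentile and Vegfc at the 4.95th. At 3 weeks the order was Pdgfb, Pdgfa, Vegfa, Pgf, Vegfb, Vegfc and Pdgfc. Pdgfb then stood at the 87.5th percentile and Vegfc at the 37.3rd. Overlapping neighbours were Pdgfb and Pdgfa, Vegfa and Pgf, Pgf and Vegfb, and Vegfc and Pdgfc.

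Among the receptors of these ligands, Pdgfrb fell and no tested gene rose. Of 8 receptor and co-receptor genes, 7 could be tested (median log2 fold change -0.50). Of these, 0 were higher, 1 was lower and 6 did not pass the test. Among all tested genes 15.7% were higher and 17.0% lower, so these counts do not set the receptors apart. Pdgfrb, the receptor for the B chain, was 0.288, 0.656, 0.407 and 0.466 RPKM at 1 week and 0.127, 0.133, 0.0445 and 0.186 RPKM at 3 weeks. These levels rest on few reads, with 30, 74, 32 and 45 at 1 week and 13, 12, 4 and 15 at 3 weeks. Pdgfrb fell without overlap while its ligand gene Pdgfb rose, by a log2 value of -1.74 (SE 0.40, adjusted p = 0.0102, edgeR). With the table number as a block it was -1.28 (adjusted p = 0.0502). Pdgfra, the receptor for the A and C chains, had mean levels of 0.269 and 0.183 RPKM (log2 fold change -0.38, adjusted p = 0.413). Pdgfrl, a receptor-like gene, had 0 to 3 reads per sample, where 3 reads are worth 0.0466 to 0.0669 RPKM, and was not tested.

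Of the VEGF receptors, Flt1, which binds VEGF-A, VEGF-B and placental growth factor, had 2.58, 5.21, 2.75 and 2.62 RPKM at 1 week and 1.39, 1.30, 0.649 and 5.21 RPKM at 3 weeks. Replicates 1 to 3 at 3 weeks were below all 1-week samples and replicate 4 was as high as the highest of them. The log2 value for Flt1 was -0.50 (adjusted p = 0.525, edgeR), and -1.40 (adjusted p = 0.0104) without that replicate. Kdr and Flt4, the receptors of endothelium, had means of 0.341 and 0.119 RPKM at 1 week and 0.198 and 0.154 RPKM at 3 weeks, with adjusted p-values of 0.234 and 0.494. The neuropilin Nrp2 was the most abundant receptor gene (12.6 ± 2.94 and 8.01 ± 3.23 RPKM, SD, n = 4, log2 fold change -0.51, adjusted p = 0.180). Nrp1 had means of 0.897 ± 0.355 and 2.01 ± 1.39 RPKM and a log2 fold change of 1.30 that missed the threshold (adjusted p = 0.0535, edgeR). It passed without replicate 3 of the 3-week group (1.52, adjusted p = 0.0254), and without replicate 4, the highest sample at 4.04 RPKM, it was 0.75 (adjusted p = 0.108). Nrp1 also passed with DESeq2 (1.32, adjusted p = 0.0140) and, in edgeR, with upper-quartile scaling (1.28, adjusted p = 0.0486). The same held in edgeR with all gene reads (1.32, adjusted p = 0.0464) and with the table number as a block (1.24, adjusted p = 0.0375). In 14 of 19 alternatives it did not pass.

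The other ligand genes of both families did not pass the test. Vegfd, the closest relative of Vegfc, had few reads, with 15, 10, 12 and 34 at 1 week and 4, 3, 3 and 10 at 3 weeks. Its means were 0.419 RPKM at 1 week and 0.131 RPKM at 3 weeks. On the log2 scale this was -1.54 (adjusted p = 0.0726, edgeR), whereas Vegfc rose. Without replicate 4 of the 3-week group the Vegfd value was -2.16 (adjusted p = 0.0223), and without replicate 4 of the 1-week group, the highest sample at 0.800 RPKM, it was -1.02 (adjusted p = 0.210). It passed with either block (-1.55, adjusted p = 0.0316, and -1.69, adjusted p = 0.0416). Pdgfd, which acts on Pdgfrb, had means of 1.05 and 1.38 RPKM and a log2 fold change of 0.56 (adjusted p = 0.318).

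**Figure D4:**
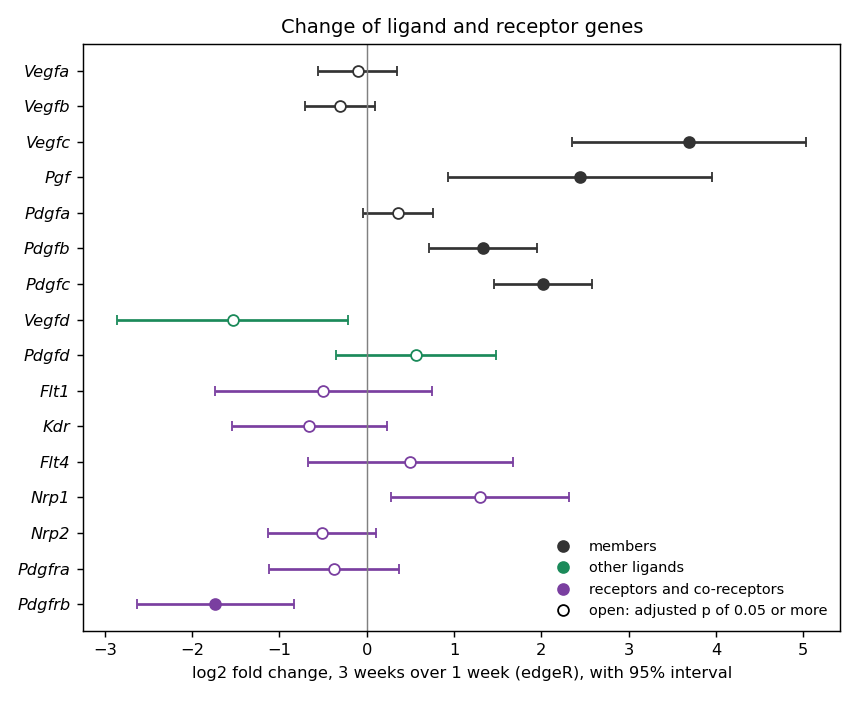
Log2 fold change (x axis, 3 weeks over 1 week, edgeR) with its 95% interval for the 7 members (black), the other ligand genes (green) and the receptor genes (purple). Filled circles passed the threshold, which were Vegfc, Pgf, Pdgfb and Pdgfc to the right of 0 and Pdgfrb to the left.

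VEGF-C and PDGF-C are made as precursors and need cleavage. Of 10 genes for proteases and cofactors that process ligands of these families, 7 were tested, 4 rose, 0 fell and 3 did not pass (median log2 fold change 0.88), beside 15.7% higher and 17.0% lower among all tested genes. Ccbe1, a cofactor of VEGF-C cleavage, had 0.0552, 0.286, 0.286 and 0.310 RPKM at 1 week and 1.66, 1.50, 0.992 and 0.480 RPKM at 3 weeks. Its groups did not overlap, and it rose by 2.48 on the log2 scale (adjusted p = 0.00751, edgeR). As for Vegfc, replicate 4 was the lowest of the 3-week samples. Plat, which encodes tissue plasminogen activator, an activator of PDGF-C, had 1.59, 0.793, 1.05 and 0.690 RPKM at 1 week and 1.44, 2.16, 1.86 and 8.68 RPKM at 3 weeks. Its log2 fold change of 1.91 (adjusted p = 0.0320) was lost without replicate 2, 3 or 4 of the 1-week group (1.79, 1.90 and 1.75, adjusted p = 0.0828, 0.0719 and 0.0861). It was 0.92 (adjusted p = 0.0801) without replicates 3 and 4 at 3 weeks. Plau (urokinase) went from a mean of 289 to 592 RPKM (log2 fold change 1.19, adjusted p = 0.00364), and Pcsk7, a proprotein convertase, from 3.73 to 5.57 RPKM (0.74, adjusted p = 0.00237). Furin, the convertase that cuts several of these precursors, did not pass (adjusted p = 0.128 at a log2 value of 0.88). The genes of the list that were not tested were near the floor. Adamts3 had 0 to 7 reads per sample, Plg (plasminogen) 0 to 2 and Pcsk5 0 to 5.

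Of 12 genes for matrix and soluble binders of the ligands and for inhibitors of angiogenesis, 11 were tested, 5 rose, 0 fell and 6 did not pass (median log2 fold change 0.89), against the same 15.7% higher and 17.0% lower over all tested genes. Thbs1 (thrombospondin 1, an inhibitor of angiogenesis) rose from a mean of 196 to 944 RPKM (log2 fold change 2.40, adjusted p = 0.00240, edgeR). Ctgf, whose protein binds VEGF-A, rose from 188 to 745 RPKM (2.15, adjusted p = 0.000872), with 66.0% of its reads mapped uniquely. Sparc, whose protein binds PDGF-B and VEGF-A, rose from 17.9 to 62.8 RPKM (1.99, adjusted p = 0.00126). Col18a1, the source of endostatin, rose from 103 to 186 RPKM (1.00, adjusted p = 0.0332). This last call was lost in 6 of the 8 fits that left out 1 sample (adjusted p up to 0.106 without replicate 1 at 1 week), and it held without replicate 2 or 3 of the 3-week group. By mean RPKM at 3 weeks, these 4 genes were all above the 7 ligand genes.

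Vegfa and other genes are induced by hypoxia through HIF factors. Of 9 oxygen-sensing and HIF genes, 8 were tested and 0 passed in either direction. Of 11 HIF target genes, all tested, 1 rose, 1 fell and 9 did not pass (median log2 fold change 0.01). Among all tested genes 15.7% were higher and 17.0% lower, so these counts do not set the list apart. The one that rose was Adm (adrenomedullin, 22.4 to 42.0 RPKM, log2 fold change 1.06, adjusted p = 0.00515, edgeR), with 13.0% of its reads mapped uniquely. The one that fell was Ndrg1 (56.1 to 34.3 RPKM, -0.55, adjusted p = 0.0151), with 46.6% mapped uniquely. Over the list the log2 fold changes ran from -0.71 for Car9 (adjusted p = 0.167) to 2.46 for Ankrd37 (adjusted p = 0.0722).

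Of 11 genes of signalling below the receptors, 9 were tested (median log2 fold change 0.36). Beside 15.7% higher and 17.0% lower over all tested genes, 0 fell, 6 did not pass and 3 rose. These were Ptprj, a phosphatase of Kdr (1.83 to 4.13 RPKM, log2 fold change 1.31, adjusted p = 0.0371, edgeR), Pik3ca (0.63, adjusted p = 0.00819) and Grb2 (0.48, adjusted p = 0.00898). The call of Ptprj was lost in 6 of the 8 fits that left out 1 sample (adjusted p up to 0.109 without replicate 1 at 1 week). That of Pik3ca was lost with limma on log2(RPKM + 0.1) (0.45, adjusted p = 0.0627) and on log2(RPKM + 1) (0.39, adjusted p = 0.0651). Over all 63 listed genes, 55 were tested. Of these, 13 rose (23.6%, beside 15.7% of all tested genes) and 2 fell (beside 17.0% of all tested genes).

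Markers of the cells that answer to these ligands were checked in the same samples. The 8 KC markers summed to 13214 to 15702 RPKM at 1 week and 8134 to 9696 RPKM at 3 weeks. Krt5 and Itga6 were lower. Most of this sum was Krt5 and Krt14, and Krt14 did not pass the test. The 8 endothelial markers summed to 3.11 to 4.66 RPKM at 1 week and 1.79 to 2.55 RPKM at 3 weeks. Of these, 3 were tested, and Egfl7 was the one that fell. Most of the sum was Egfl7 (means of 3.38 and 1.59 RPKM). Only 35.0% of its reads were mapped uniquely, and it overlaps Agpat2 on the opposite strand. The 8 fibroblast markers, which include Pdgfra and Pdgfrb, summed to 4.00 to 6.98 and 2.84 to 6.14 RPKM, and only Pdgfrb changed. The sum of the 6 pericyte and smooth muscle markers was 141 to 365 RPKM at 1 week and 1125 to 2694 RPKM at 3 weeks. Nearly all of this was Acta2, since the other 5 summed to 1.12 to 2.60 and 2.18 to 12.4 RPKM. Of that list 3 were tested, and Acta2 and Notch3 rose while Cspg4 fell. Myh11, which was not tested, had 2, 7, 3 and 4 reads at 1 week and 171, 47, 4 and 167 at 3 weeks. Rgs5 and Des, also not tested, had lower means at 3 weeks (0.0614 to 0.0402 and 0.132 to 0.0851 RPKM). Platelets carry PDGF, and the sum of their 4 markers (67.8 to 271 and 140 to 420 RPKM) was nearly all Ppbp, which did not pass the test (log2 fold change 0.75, adjusted p = 0.227, edgeR). Gp9 was at 0 reads in all samples, and the 3 markers other than Ppbp summed to 0.423 to 1.17 RPKM at 1 week and 0.200 to 0.437 RPKM at 3 weeks. The 6 melanocyte markers summed to 3.22 to 21.0 and 1.28 to 5.55 RPKM with Pmel lower, and the 6 leukocyte markers to 0.670 to 1.95 and 0.913 to 1.95 RPKM with Cd207 at 0 in all samples. The part of these cells in the change of the ligand genes was not tested.

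The genes most like each member were sought by Pearson's r of TMM log2 CPM (counts scaled to library size) over the 8 samples, among the 8564 genes that averaged 10 CPM or more. The samples fall into 2 groups by time and share their libraries, so these values are a description. Pdgfc followed the separation by time most closely, with Aes (0.995) and Sap18 (0.994) nearest and 165 genes above 0.95. Vegfc was nearest to Pcgf3 and Ak1 (both 0.993), with 132 genes above 0.95. Pdgfb was nearest to Gdpd5 (0.992) and Cited2 (0.990), with 28 such genes. Pgf was nearest to Sec31a (0.987) and Csnk1g2 (0.979), with 17. The genes that did not pass had few such neighbours. Pdgfa had 11, with Sh3kbp1 (0.980) and B4galt7 (0.971) nearest. Vegfb had 3, with Cebpd (0.964) and Pam (0.958), and Vegfa had 1, Pogk (0.954), followed by Kdm4a (0.942).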

How the data were processed

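RNA of 8 KC samples (4 per time) was analysed from 1 gene table per sample. Groups and replicate numbers came from the labels. The authors prepared poly(A) libraries, trimmed adapters and aligned the reads to GRCm38 in the CLC Genomics Workbench 12. The count columns deposited by the authors give raw reads for each gene. The RPKM and TPM values were computed by the authors and deposited with decimal commas; TPM were not used further. Use of the strand and the annotation release are not given in the sources used here.

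Total exon reads were tested in edgeR 4.0.16 (R 4.3.3) over all genes left by filterByExpr, with TMM, glmQLFit and glmQLFTest, p-values adjusted after Benjamini-Hochberg and a threshold of 0.05. F statistics gave the standard errors and 95% intervals. The fit over all 8 samples was unpaired, since the study's statistics name unpaired tests. Simulated counts for 12463 genes were tested for this comparison: 86.5% of genes changed 4-fold and 27.8% of those changed 2-fold were recovered, with 2 false calls. The simulation changed only 193 genes, whereas 4127 of 12590 genes were called in the data. Since the adjustment of p-values depends on that share, these recovery rates do not carry over to the reported fit. Changes of 2-fold may still have been missed, but how many was not measured.

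The 7 members were chosen by family and described in full. Pathway and marker lists came from textbook knowledge; all receptors and other ligands, and of each other list up to 4 called genes with the largest change, were named. The members and lists were chosen with earlier results of these data known. The genes Furin, Adamts3, Plg, Pcsk5, Car9, Ankrd37, Acta2, Notch3, Cspg4, Myh11, Rgs5 and Des were named after their values were seen. So were Egfl7, Pmel, Krt5, Krt14, Itga6, Ppbp, Gp9 and Cd207. For likeness, 2 genes per member were named. Promoter windows came from a RefSeq table on GRCm38.p6 and were compared with GENCODE M21 exons.

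Alternatives were DESeq2 1.42.0, upper-quartile scaling, no filter, at least 10 counts in every sample, unique exon reads, all gene reads, limma 3.58.1 on log2(RPKM + 0.1) or log2(RPKM + 1), blocks by replicate number or by the number each table carries (46, 49 and 90 occur at both times), and each sample left out. Omission of 3-week replicates 3 and 4 was added after seeing the data. Figures were drawn with matplotlib 3.10.9 in Python 3.11.15.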

Additional observations from a re-analysis of the deposited data

Results flagged for a closer look

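Within the groups of 4 samples, 1 sample stood far from the other 3 in 9 of 60 groups over 30 genes (Dixon's gap test, critical value 0.829). The nominal rate of about 1 in 20 is for independent, normally distributed values. The 60 groups come from the same 8 libraries, so the count is a description. Among the members the flagged genes were Vegfb, with 6.07 RPKM in replicate 4 at 3 weeks, and Pdgfc, with 0.862 RPKM in replicate 3 at 1 week. Flt1 stood out with 5.21 RPKM in replicate 2 at 1 week and again with 5.21 RPKM in replicate 4 at 3 weeks. Replicate 4 at 3 weeks was also the high sample for Vegfd (0.283 RPKM) and Plat (8.68 RPKM). The low samples were replicate 1 at 1 week for Ccbe1 (0.0552 RPKM) and Sparc (12.2 RPKM), and replicate 3 at 3 weeks for Ndrg1 (29.6 RPKM).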

How the results depend on the processing

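Vegfc, Pdgfb and Pdgfc kept their direction and their call in every alternative that could test them (Vegfc could not be tested with at least 10 counts in every sample). Their log2 fold changes ranged from 1.44 to 4.03, 1.15 to 1.64 and 0.96 to 2.27, with adjusted p-values up to 0.00915, 0.0261 and 0.00966. Vegfa never passed, and its sign turned with the number block (0.11), without 1-week replicate 2 (0.0295, lowest value -0.24 over samples left out) and without 3-week replicates 3 and 4 (0.0239). Without those, Vegfb was -0.52 (adjusted p = 0.04996), which made 1 member lower, and Pdgfa was 0.60 (adjusted p = 0.00915). Leaving out 1 sample gave 0.24 to 0.49 for Pdgfa and 1.85 to 2.92 for Pgf, whose adjusted p-values over all alternatives ran from 0.000511 to 0.0838. Between 3 and 5 members were higher in any alternative, and 2867 to 4882 genes were called in all.

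The study followed the same KC batches at both times, but which samples share a batch is not given in the sources used here. Deviations of samples with the same replicate number correlated at -0.23, -0.15, -0.15 and 0.25, and of samples with the same table number at -0.23 (46), 0.20 (49) and 0.25 (90). Neither numbering had positive correlations throughout. The numbers 47 (1 week) and 57 (3 weeks) occur at only 1 of the times. Whether these numbers mark batches is not given in the sources used here. The reported fit was unpaired, since the study's statistics name unpaired tests, and the blocks were alternatives only. A replicate block gave 2867 calls in place of 4127, and values of -0.10 for Vegfa, -0.32 for Vegfb, 3.52 for Vegfc, 0.33 for Pdgfa, 1.38 for Pdgfb and 2.05 for Pdgfc. Pgf was 2.37 (adjusted p = 0.0838) with the replicate block and 2.12 (adjusted p = 0.0834) with the number block, which uses fewer samples. With the number block, Plat (1.54, adjusted p = 0.157), Grb2 (0.39, adjusted p = 0.104), Ndrg1 (-0.47, adjusted p = 0.0970), Ccbe1 (2.56, adjusted p = 0.0509) and Pdgfrb (-1.28, adjusted p = 0.0502) also missed the threshold. With the replicate block, Col18a1 (0.91, adjusted p = 0.102), Plat (1.57, adjusted p = 0.0989), Ptprj (1.11, adjusted p = 0.0627), Ndrg1 (-0.54, adjusted p = 0.0542) and Grb2 (0.48, adjusted p = 0.0504) did. No call of another member changed with either block.

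Of the pathway genes, 13 were higher, but 8 with limma at either pseudocount, 8 with the replicate block and 9 to 18 without 1 sample. With limma at 0.1 and 1, Plat (adjusted p = 0.0723 and 0.104) and Col18a1 (adjusted p = 0.127 and 0.130) lost the call. So did Ptprj (adjusted p = 0.137 and 0.140) and Pik3ca (adjusted p = 0.0627 and 0.0651). The 2 lower genes became 4 with DESeq2, 1 with at least 10 counts in every sample, 6 and 5 with limma at 0.1 and 1, 1 with the number block, 5 without 3-week replicates 3 and 4, and 2 to 6 without 1 sample (6 without 3-week replicate 4). The causes were not tested. Of the 415 values of other named genes, 370 kept direction and call, 34 lost the call and 11 gained one.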
